A study of Mus musculus with 8 samples.

Results

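Secreted modulators of angiogenesis were followed in tumor organoids that carry or lack SOX4. The 7 genes were Serpinf1 (the secreted serpin PEDF), Pgf (placental growth factor), Vegfb and Vegfc (vascular endothelial growth factors), Thbs1 and Thbs2 (thrombospondins) and Angptl4 (an angiopoietin-like protein). They were picked by name from 38293 gene identifiers in the bulk tables, with earlier results of these samples known, and all 7 were also present in the single-cell tables. The difference between SOX4KO and control organoids is therefore given for them as a description. Which of them passed the threshold used for all genes is stated only as part of that description, and no p-value is given for them. The gene identifiers are ENSMUSG00000000753 for Serpinf1, ENSMUSG00000004791 for Pgf, ENSMUSG00000024962 for Vegfb, ENSMUSG00000031520 for Vegfc, ENSMUSG00000040152 for Thbs1, ENSMUSG00000023885 for Thbs2 and ENSMUSG00000002289 for Angptl4. The single-cell files place Serpinf1 on chromosome 11, Pgf on 12, Vegfb on 19, Vegfc on 8, Thbs1 on 2 and both Thbs2 and Angptl4 on 17.

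The organoids came from mammary tumors of MMTV-PyMT; MMTV-Cre; Ecadherin-mCFP mice, in which the MMTV promoter drives the polyoma middle T oncogene and Cre in mammary epithelium and E-cadherin is tagged with a fluorescent protein. SOX4KO lines were made with CRISPR/Cas9, every line was grown from a single clone, and all lines had been kept in matrigel with FGF2 for 4 days before RNA was taken. Bulk RNA-sequencing covered 2 control lines (WT1 and WT3) and 3 SOX4KO lines (H7, M4 and H4), with 1 library each, and single-cell RNA-sequencing covered 1 control library (GR17) and 2 SOX4KO libraries (GR18 and GR19) that the labels do not tie to the bulk clones. A p-value across these lines sets the group difference against the spread between clones, each with 1 library. Differences of clone, culture and library cannot be told apart in that spread, and nothing in the labels says that the clones came from separate animals.

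PEDF is known as an inhibitor of endothelial growth and migration and is bound by the lipase Pnpla2, the plexin domain proteins Plxdc1 and Plxdc2 and the laminin receptor Rpsa. Placental growth factor and VEGF-B bind the receptor Flt1 and the co-receptor Nrp1, while VEGF-C signals through Flt4 and Kdr with Nrp2 and is best known for the growth of lymphatic vessels. Thrombospondins restrain vessel growth through Cd36 and Cd47, and Angptl4 blocks lipoprotein lipase and is induced by PPAR factors and by low oxygen. These proteins are known chiefly for their action on endothelial cells.

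The promoters of Serpinf1 and Pgf are shown because these genes differed most between the groups among the 7. Each run holds the 250 bases before the gene's start in RefSeq on the GRCm38.p6 build, read 5′ to 3′ along the gene's strand, which is the minus strand for both. The Serpinf1 run lies at chr11:75422624-75422873 and the Pgf run, the first of 2 starts in RefSeq, at chr12:85177314-85177563. Capitals mark a match to the SOX core letters ACAAT or ACAAAG on either strand.
Serpinf1: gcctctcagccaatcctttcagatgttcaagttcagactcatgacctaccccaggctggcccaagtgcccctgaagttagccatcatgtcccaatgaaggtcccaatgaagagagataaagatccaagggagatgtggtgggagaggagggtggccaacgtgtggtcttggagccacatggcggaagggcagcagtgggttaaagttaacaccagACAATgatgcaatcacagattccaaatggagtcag
Pgf: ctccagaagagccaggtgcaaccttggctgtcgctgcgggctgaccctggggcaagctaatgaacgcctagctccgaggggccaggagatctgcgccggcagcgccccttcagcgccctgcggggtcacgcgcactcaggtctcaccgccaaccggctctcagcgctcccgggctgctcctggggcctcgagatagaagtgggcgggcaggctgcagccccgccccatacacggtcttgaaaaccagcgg
The single match in Serpinf1 was ACAAT on the gene's strand, beginning 35 bases before the start. A core of the hypoxia response element, ACGTG, also occurred once in Serpinf1, beginning 93 bases before the start. No match to either set of letters lay in these windows of Pgf (both starts), Vegfb, Vegfc or Thbs2, and the table held no entry for Thbs1 and Angptl4. Of all 32851 promoter windows of this length, 38.8% held a SOX core and 16.6% held ACGTG, and a match is a string of letters and not a site shown to be bound.

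Between 3050323 and 4678497 reads were assigned to genes in each bulk library, and each single-cell library held 7714119 to 8296953 UMIs in 362 to 369 cells. Sox4 transcripts measured 295 and 374 normalized CPM in WT1 and WT3 and 199, 179 and 299 in H7, M4 and H4, so that H4 lay within the control lines. A frameshifting indel need not lower the transcript, and these counts do not check the labels. Of 8 endothelial markers, 5 (Cdh5, Kdr, Tie1, Emcn and Cldn5) had no count in any bulk line and the 8 summed to 1.29 to 3.96 normalized CPM, and 8 fibroblast markers summed to 59.8 to 114 with Fap and Thy1 at 0. Luminal markers (19 genes) summed to 6340 to 11544 normalized CPM with overlapping groups, a sum led by Lcn2 (means of 2170 in control and 4064 in SOX4KO lines). Of 17 tested luminal markers, 1 rose and 2 fell in edgeR's test at an adjusted p under 0.1, the median log2 fold change was -0.51, and 9 were below both control lines in every SOX4KO line, as were 17.9% of all genes tested. Basal markers (15 genes) summed to 2288 and 1430 in WT1 and WT3 and to 5245, 7673 and 2705 in H7, M4 and H4. Cycling markers (10 genes) summed to 734 and 707 in the control lines and to 362, 499 and 317 in H7, M4 and H4. In the same test 5 of the 10 fell, with a median log2 fold change of -0.82. Over all genes tested, 4.10% rose and 2.17% fell in that test.

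Serpinf1 was the member that differed most. Normalized bulk CPM of Serpinf1 measured 10.9 in WT1 and 9.36 in WT3, against 599, 464 and 340 in H7, M4 and H4. Both control lines were low, all 3 SOX4KO lines were high, and the groups did not overlap. The group means were 10.1 ± 1.07 (SD, n = 2) and 468 ± 130 (SD, n = 3), a 46.2-fold difference or a log2 fold change of 5.53 ± 0.33 (SE). The control values rested on 42 and 47 reads and the SOX4KO values on 1288 to 2296 reads.

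Pgf was expressed in every line. Its normalized CPM measured 66.3 in WT1 and 82.1 in WT3, against 439, 407 and 303 in H7, M4 and H4. The groups were again apart, with the lowest SOX4KO line (H4) well above the higher control line (WT3). The means were 74.2 ± 11.2 (SD, n = 2) and 383 ± 71.3 (SD, n = 3), a 5.16-fold difference or a log2 fold change of 2.37 ± 0.24 (SE). For both Serpinf1 and Pgf the order among SOX4KO lines was H7, M4, H4.

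**Figure D1:**
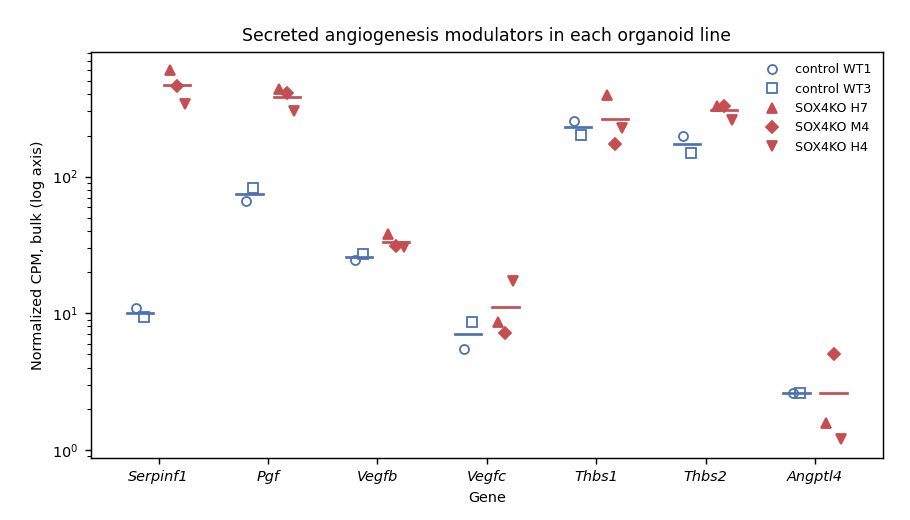
Normalized CPM (log axis) of the 7 genes in each bulk line, with open symbols for the 2 control lines, filled symbols for the 3 SOX4KO lines and a horizontal bar at each group mean. Serpinf1 and Pgf of all SOX4KO lines lie far above both control lines, whereas the groups overlap for Vegfc, Thbs1 and Angptl4.

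The other VEGF family members differed little. Normalized CPM of Vegfb, a ligand of Flt1 with a known role in fatty acid uptake, measured 24.3 and 27.1 in WT1 and WT3 and 38.1, 31.0 and 30.7 in H7, M4 and H4. The groups were apart, by a margin smaller than the spread among SOX4KO lines, and the log2 fold change was 0.37 ± 0.20 (SE). Vegfc, the lymphatic ligand, measured 5.44 and 8.56 normalized CPM in the control lines and 8.61, 7.20 and 17.2 in H7, M4 and H4. Only H4 stood out and the groups overlapped, with a log2 fold change of 0.66 ± 0.44 (SE) that became 0.17 without H4.

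The thrombospondins parted from each other. Thbs2 measured 199 and 148 normalized CPM in WT1 and WT3 and 331, 329 and 261 in H7, M4 and H4. All SOX4KO lines lay above both control lines, with means of 173 ± 36.3 (SD, n = 2) and 307 ± 40.1 (SD, n = 3) and a log2 fold change of 0.82 ± 0.21 (SE). Thbs1 measured 257 and 202 normalized CPM in WT1 and WT3 and 399, 172 and 226 in H7, M4 and H4. H7 was above and M4 below both control lines, and the log2 fold change of 0.21 ± 0.33 (SE) became -0.21 without H7. A gene on the opposite strand, Gm29233, overlaps Thbs1 in the annotation and was not a counted identifier.

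Angptl4 was close to the limit of detection. It was represented by 10 and 13 reads in WT1 and WT3 and by 6, 14 and 5 reads in H7, M4 and H4. Its normalized CPM were 2.59 in both control lines and 1.57, 5.04 and 1.20 in the SOX4KO lines, which fell on both sides of the control value. The log2 fold change was -0.08 ± 0.66 (SE), and a difference was not detectable at this depth.

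All 7 genes passed the filter on low counts. Serpinf1, Pgf and Thbs2, 3 of the 7, were past the threshold used for all genes (adjusted p under 0.1 in edgeR's quasi-likelihood test) and higher in SOX4KO lines, against 4.10% of the 11682 genes tested. Thbs2 was no longer past it without WT1, without WT3 or without H7, whereas Serpinf1 and Pgf were past it with each line left out. All SOX4KO lines lay above both control lines for 4 of the 7 (Serpinf1, Pgf, Vegfb and Thbs2), against 19.0% of genes tested. As these samples helped to choose the genes, nothing is read from these counts. In bulk RNA, a larger share of cells of 1 type cannot be told apart from more RNA per cell, and of 12 tested basal markers 5 rose and 1 fell in the SOX4KO lines by the same test. Without Sparc the basal markers summed to 986 and 698 normalized CPM in WT1 and WT3 and to 1482, 2331 and 1013 in H7, M4 and H4. The cycling sums given above were apart between the groups, whereas the luminal sums overlapped and luminal markers were called in both directions. In the single-cell libraries, the 15 basal markers summed to 4394 CPM in GR17, 4609 in GR18 and 2422 in GR19. The 19 luminal markers summed to 5339, 8515 and 10518 CPM in the same order, with Lcn2 alone at 2781, 5955 and 6264. Unlike in bulk, both SOX4KO libraries thus lay above the control library in the luminal sum, which Lcn2 led. Single luminal markers went both ways. Csn3 measured 101, 391 and 1754 CPM in GR17, GR18 and GR19, whereas Cd24a measured 793, 490 and 471 CPM. The 10 cycling markers summed to 2990, 2335 and 2417 CPM. The part of these markers in the differences was not tested.

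Per length, the order of the genes differed between the groups. On the RPKM scale (normalized CPM per kilobase of exons), Thbs1 led the control lines at 37.8 ± 6.31 (SD, n = 2), followed by Pgf at 25.5 ± 3.84 and Thbs2 at 24.8 ± 5.18, whose lines overlapped. Vegfb at 16.02 RPKM, Serpinf1 at 4.29, Vegfc at 2.86 and Angptl4 at 0.731 came next, each apart from its neighbours. In SOX4KO lines Serpinf1 led at 198 ± 54.9 RPKM (SD, n = 3) and Pgf followed at 132 ± 24.6, with overlapping lines. Thbs2 at 43.8 ± 5.72 and Thbs1 at 43.8 ± 19.5 RPKM overlapped as well, and Vegfb (20.7), Vegfc (4.50) and Angptl4 (0.734) followed. Serpinf1 thus moved from the fifth rank in control lines to the first in SOX4KO lines.

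The other genes of these pathways were taken from lists of 72 genes, of which 39 passed the filter. Past an adjusted p of 0.1 in edgeR's quasi-likelihood test, 12 rose and 1 fell in SOX4KO lines, where 4.10% and 2.17% of all genes did. The median log2 fold change of the 39 was 0.39, against 0.0087 over all genes tested. These calls leaned on the pair of control lines: 5 rose and 0 fell without WT1, and 1 rose and 0 fell without WT3, when the remaining control line was assumed to vary like the SOX4KO lines. Cxcl12 was the single gene called with every line left out.

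Among receptors, the co-receptors rose in bulk and the signaling receptors were scarce. Nrp1, the co-receptor shared by several VEGF ligands, measured 17.6 and 18.9 normalized CPM in WT1 and WT3 and 55.8, 50.03 and 92.9 in H7, M4 and H4, a log2 fold change of 1.86 ± 0.30 (SE; edgeR, Benjamini-Hochberg adjusted p = 0.0229). Nrp2, the co-receptor for VEGF-C, measured 4.87 ± 1.53 (SD, n = 2) and 15.5 ± 4.51 (SD, n = 3), with a log2 fold change of 1.69 ± 0.38 (edgeR adjusted p = 0.0547). Flt1, the signaling receptor of placental growth factor and VEGF-B, measured 5.71 in control and 3.65 normalized CPM in SOX4KO lines and did not pass the test (edgeR adjusted p = 0.531). Kdr and Flt4 had no count in any line.

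Of 4 PEDF receptors 1 rose. Plxdc2 measured 83.4 and 58.4 normalized CPM in WT1 and WT3 and 236, 192 and 191 in H7, M4 and H4, a log2 fold change of 1.54 ± 0.22 (SE; edgeR adjusted p = 0.0146). The other 3 had log2 fold changes of -1.13 for Plxdc1, -0.42 for Pnpla2 and -0.09 for Rpsa, with edgeR adjusted p of 0.274, 0.261 and 0.908. For the thrombospondin receptors, Cd47 had a log2 fold change of 0.44 ± 0.21 (edgeR adjusted p = 0.310) and Cd36 had 1 read in all lines. Of 3 partners of Angptl4 in lipolysis, including lipoprotein lipase (Lpl), none passed the filter on low counts.

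Of 5 tested genes among the other secreted inhibitors of angiogenesis, 4 rose, and the median log2 fold change was 1.82. None of these 4 calls held without WT3. Col18a1, the collagen from which endostatin is cut, measured 273 ± 106 normalized CPM in control (SD, n = 2) and 1339 ± 293 in SOX4KO lines (SD, n = 3), with edgeR adjusted p = 0.0136. Adamts1, a protease that trims matrix proteoglycans and thrombospondins, went from 7.90 ± 3.84 to 59.8 ± 18.9 normalized CPM (edgeR adjusted p = 0.0131). Timp3, an inhibitor of metalloproteinases, had a log2 fold change of 1.25 ± 0.23 (edgeR adjusted p = 0.0320). Sparc, a matrix glycoprotein that also sits on the basal marker list, had a log2 fold change of 1.82 ± 0.48 (edgeR adjusted p = 0.0891). Serpinb5, the remaining tested gene, had a log2 fold change of 0.39 ± 0.19 that did not pass (edgeR adjusted p = 0.341).

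Of 9 tested secreted promoters 2 rose. Cxcl12, a chemokine that recruits Cxcr4-bearing cells, measured 4.14 and 17.3 normalized CPM in WT1 and WT3 and 127, 126 and 152 in H7, M4 and H4, a log2 fold change of 3.61 ± 0.47 (SE; edgeR adjusted p = 0.0130). Pdgfa, a growth factor for mesenchymal cells, had a log2 fold change of 1.46 ± 0.23 (edgeR adjusted p = 0.0206). Angptl2, a relative of Angptl4, had a log2 fold change of 1.61 ± 0.24 (edgeR adjusted p = 0.0165), and the remaining tested gene of the angiopoietin list, Angpt1, did not pass. The one tested VEGF ligand outside the 7, Vegfa, had a log2 fold change of 0.62 ± 0.31 (edgeR adjusted p = 0.340).

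Induced genes of low oxygen and of PPAR factors were counted because both are known to act on Angptl4. Of 10 hypoxia-induced genes 2 rose, namely Bnip3 (log2 fold change 1.02 ± 0.19, edgeR adjusted p = 0.0361) and Car9 (0.89 ± 0.23, edgeR adjusted p = 0.0785), and the median over the 10 was 0.35. Bnip3 acts in the removal of mitochondria and Car9 in the control of acidity. Of 3 tested PPAR-induced genes 1 fell, Cpt1a, which carries fatty acids into mitochondria (log2 fold change -0.92 ± 0.22, edgeR adjusted p = 0.0657).

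**Figure D2:**
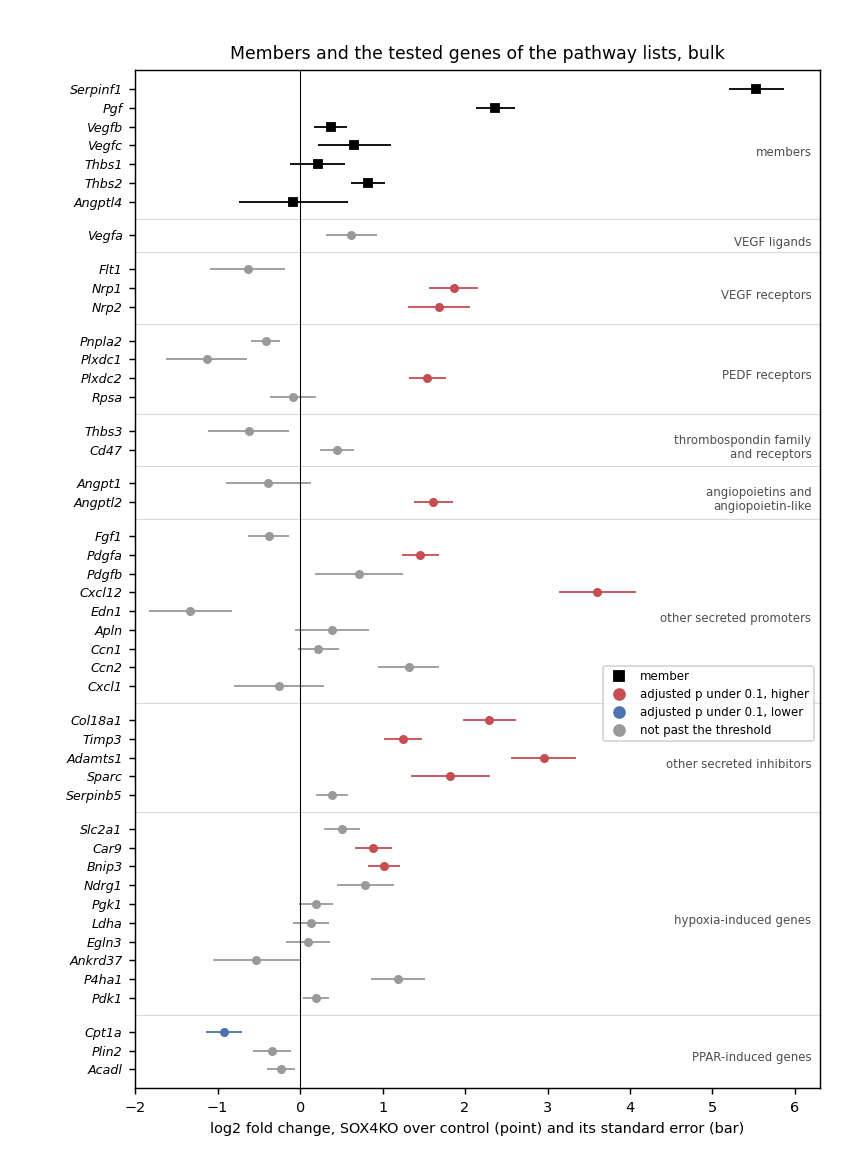
Log2 fold changes of SOX4KO over control lines in bulk (points) with standard errors (bars) for the 7 genes (black squares) and the 39 tested genes of the pathway lists (circles), in which red marks genes past an adjusted p of 0.1 and higher, blue marks lower and grey marks the rest. Serpinf1 at 5.53 lies beyond every pathway gene shown, of which Cxcl12 at 3.61 was highest.

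In the single-cell libraries, wells with at least 1000 UMIs were taken as cells, 369 in GR17, 369 in GR18 and 362 in GR19, with median depths of 19845, 20525 and 21877 UMIs. With 1 control library there was no test, and intervals cover counting error only. UMIs summed over cells gave Serpinf1 72.2 CPM in the control library GR17, with an exact Poisson interval (95%) of 66.3 to 78.5. The SOX4KO libraries gave 230 CPM (GR18, interval 219 to 240) and 156 CPM (GR19, interval 148 to 165). Both SOX4KO libraries were above the control library, by 3.18-fold and 2.16-fold. The bulk ratio was 46.2-fold, and as the libraries are not tied to the bulk lines and were made by another method, these values stand side by side without a comparison.

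Pgf measured 60.0 CPM in GR17 (interval 54.7 to 65.7), and the SOX4KO libraries measured 174 CPM (165 to 183) and 136 CPM (128 to 144). These were 2.89-fold and 2.26-fold above the control library. Serpinf1 and Pgf were both at least 2-fold higher in both SOX4KO libraries, as were 1.92% of 6303 genes that averaged 20 CPM or more. The share of cells with a Serpinf1 UMI was 53.9% in GR17, 65.6% in GR18 and 59.1% in GR19, and with a Pgf UMI 55.8%, 79.1% and 75.1%. After thinning of each cell to 5000 UMIs, which left out 8, 4 and 4 shallower cells, the Serpinf1 shares were 28.3%, 48.8% and 39.9% and the Pgf shares 23.5%, 50.7% and 41.3%. The order of the libraries was the same as in CPM. The 52 wells under 1000 UMIs, with 14004 UMIs in all, held 1 UMI of the 7 genes, from Vegfb.

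Of the other members, only Vegfc was higher in both SOX4KO libraries with intervals apart from the control library. Vegfb measured 45.1 CPM in GR17, 57.6 in GR18 and 48.5 in GR19, with the intervals of GR17 and GR19 overlapping. Thbs1 measured 57.3, 42.7 and 48.6 CPM and Thbs2 10.2, 10.1 and 8.32 CPM, so that neither thrombospondin was higher in the SOX4KO libraries. Vegfc measured 4.41 CPM (interval 3.05 to 6.16) in GR17 on 34 UMIs, and 8.12 CPM (6.26 to 10.3) and 11.3 CPM (9.16 to 13.9) in the SOX4KO libraries on 65 and 94 UMIs. These were 1.84-fold and 2.57-fold above GR17. Angptl4 was seen with 3, 13 and 4 UMIs.

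**Figure D3:**
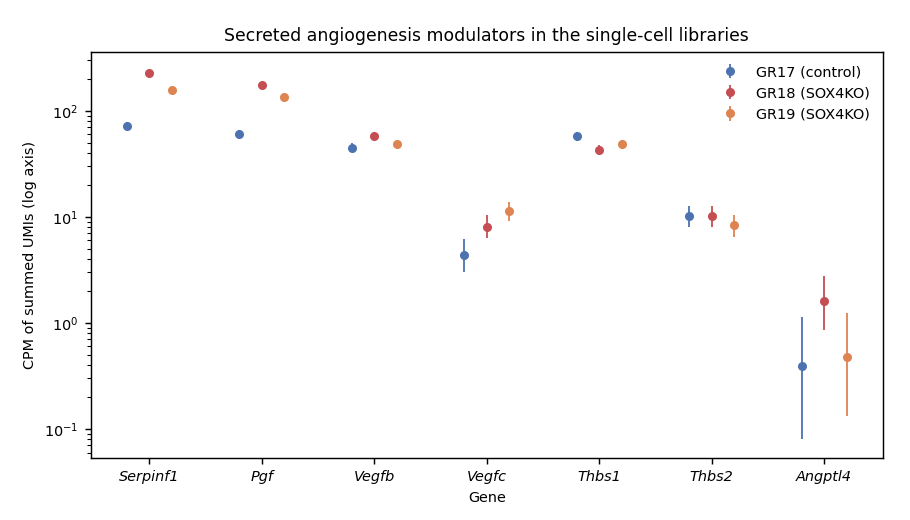
CPM of summed UMIs (log axis) for the 7 genes in the control library GR17 and the SOX4KO libraries GR18 and GR19, with 95% exact Poisson intervals that cover counting error only. Serpinf1, Pgf and Vegfc of both SOX4KO libraries stand above GR17, and the thrombospondins do not.

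Of the 12 pathway genes that rose in bulk, 10 had at least 20 CPM on average in the single-cell libraries and 3 of these were at least 2-fold higher in both SOX4KO libraries. The PEDF receptor Plxdc2 measured 10.9 CPM in GR17, 35.6 in GR18 and 33.5 in GR19. Car9 measured 30.2, 177 and 122 CPM, and Bnip3 34.2, 293 and 174 CPM. None of the 4 secreted inhibitors that rose in bulk was among these. Col18a1 measured 259, 226 and 227 CPM in GR17, GR18 and GR19, Timp3 81.0, 109 and 71.5 CPM, Adamts1 167, 188 and 173 CPM, and Sparc 593, 1152 and 595 CPM. The co-receptors did not rise in both SOX4KO libraries. Nrp2 measured 60.8, 57.3 and 59.9 CPM, and Nrp1, which averaged under 20 CPM, 9.07, 6.99 and 9.88 CPM. Cxcl12, also under 20 CPM on average, measured 0.778, 9.49 and 5.54 CPM in GR17, GR18 and GR19. Cpt1a, which fell in bulk, did not fall here, at 2.98, 4.37 and 3.74 CPM, likewise under 20 CPM on average.

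Cells fell into 6 clusters, A to F, when the 7 genes were kept out of the variable genes. Cluster A, led by the basal keratin Krt17, was mostly the control library, with 330 cells of GR17 and 11 and 7 of GR18 and GR19. Clusters B, C and F were mostly of SOX4KO libraries, with 9 cells of GR17 in B and 0 in C and F. Cluster B was basal-like, led by the matrix gene Postn and with Sparc, Vegfa and the stress-responsive Ndrg1 among its leading genes. C was led by genes that included DNA replication factors and F by genes of mitosis. Over all libraries, the basal keratin Krt5 measured 1980, 1901, 1372 and 1367 CPM in A, B, C and F, against 67.3 and 69.5 in D and E. Krt14 measured 1668, 2750, 1447 and 1712 CPM, against 285 and 291. By these keratins C and F were basal-like as well, though Krt17 was low in B, C and F (3.36 to 8.09 CPM, against 160 in A). Clusters D and E, with the milk protein gene Csn3 among their leading genes, were luminal-like and held 30 cells of GR17, 106 of GR18 and 131 of GR19, beside the inflammatory genes Cxcl2 in D and S100a8 in E. Since the clusters outside D and E split by library, the library and the cluster cannot be told apart there.

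Serpinf1 was sparse in the luminal-like clusters of every library. In D and E together the control library gave 2.96 CPM, with a Poisson interval of 0.359 to 10.7. GR18 gave 5.48 CPM (3.0 to 9.19) and GR19 9.03 CPM (6.17 to 12.7) in the same clusters. Outside D and E it measured 78.8, 335 and 266 CPM. D and E held 8.75%, 31.9% and 42.7% of all UMIs of the libraries but 0.359%, 0.761% and 2.47% of Serpinf1 UMIs. These are values of the clustered cells and carry no test.

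Among the other clusters with at least 15 cells of a library, Serpinf1 was lowest in A and highest in C. It measured 79.5 CPM in the GR17 cells of A, 252 and 222 CPM in the GR18 and GR19 cells of B, 422 and 314 CPM in C and 347 and 266 CPM in F. In GR19 the intervals of C (289 to 341) and F (237 to 297) overlapped. GR18 was above GR19 in each of B, C and F, with overlapping intervals in B.

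Pgf was spread more evenly. In D and E together GR17 gave 41.5 CPM (27.6 to 59.9), GR18 69.3 CPM (59.4 to 80.3) and GR19 81.2 CPM (72.1 to 91.2), against 61.8, 223 and 176 CPM outside. It was highest in B, at 252 and 217 CPM in GR18 and GR19. Within D alone the 3 libraries measured 52.0, 55.9 and 60.4 CPM with overlapping intervals, whereas in E they measured 23.8, 84.0 and 117 CPM, the first from 6 UMIs.

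The thrombospondins were not spread alike over the clusters. Thbs1 was highest in E, where GR17 gave 103 CPM (67.3 to 151), GR18 51.9 CPM (39.9 to 66.4) and GR19 99.2 CPM (82.9 to 118). The interval of GR18 in E overlapped that in C (49.5 CPM, 40.5 to 60.0). In D and E together Thbs1 measured 57.8, 41.5 and 70.0 CPM in GR17, GR18 and GR19, against 57.3, 43.3 and 32.6 CPM outside. Only in GR19 was it clearly higher in D and E, which held 61.5% of its UMIs. Thbs2 was at 1.48, 3.13 and 2.26 CPM in D and E and at 11.1, 13.4 and 12.8 CPM outside. When D and E were left out, an alternative chosen after the values were seen, the mean log2 difference of the SOX4KO libraries from GR17 moved from 1.38 to 1.91 for Serpinf1, from 1.34 to 1.66 for Pgf, from -0.32 to -0.59 for Thbs1 and from -0.14 to 0.22 for Thbs2.

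**Figure D4:**
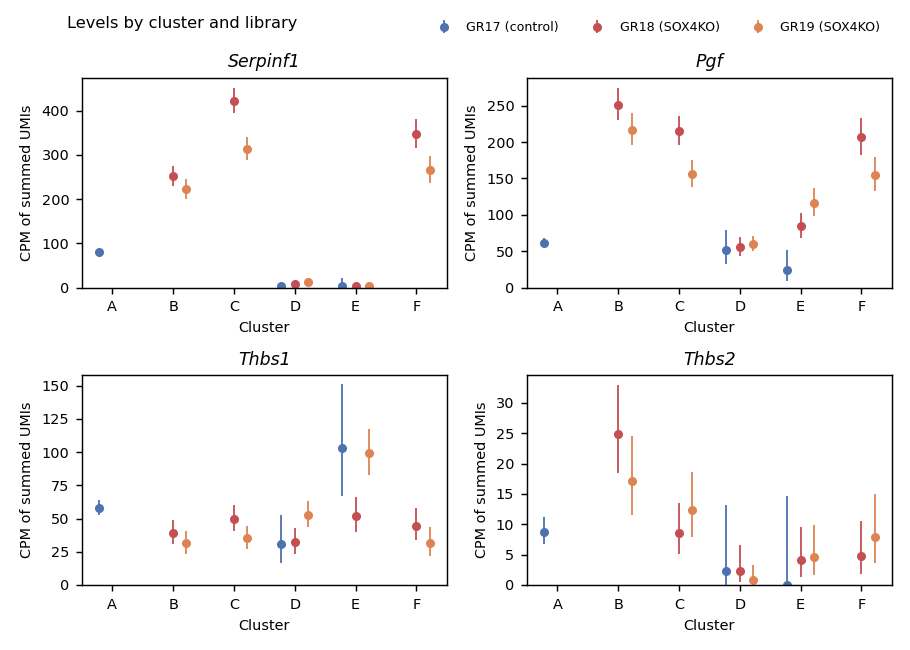
CPM of summed UMIs for Serpinf1, Pgf, Thbs1 and Thbs2 in clusters A to F of each library with at least 15 cells in the cluster, with 95% exact Poisson intervals. Serpinf1 lies near 0 in the luminal-like clusters D and E of all 3 libraries, where Pgf and Thbs1 are present.

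The genes most like Serpinf1 across cells, by the mean within-library Pearson r of log2 thinned UMIs over 1356 genes, were Sparc (0.43), Krt5 (0.43), Cmah (0.40), Emb (0.35) and Krt14 (0.35). For Sparc r was 0.23 in 361 cells of GR17, 0.51 in 365 of GR18 and 0.54 in 358 of GR19. For Pgf the most like genes were Krt14 (0.22), Fam101b (0.20), Sparc (0.19), Cmah (0.18) and Pgam1 (0.17), which are weak values in sparse counts. Serpinf1 and Pgf themselves had r of 0.076, 0.21 and 0.10 in GR17, GR18 and GR19, and of 0.053, 0.054 and -0.038 outside D and E. Cells of a library share its depth and cell types, so these values are descriptions.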

How the data were processed

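For each bulk line the deposited file held unnormalized read counts per gene, and for each single-cell library unnormalized UMI counts per gene and well. Their processing notes name STAR 2.4.2a, HTSeq, Seurat and the NCBIM37 and mm9 builds, and the strand setting of the counting is not given in the sources used here. Uniquely mapped bulk reads on no feature (46.6% to 64.7%), ERCC spike-ins (0.791% to 1.62% of single-cell UMIs) and other rows that name no gene were left out.

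Of 38293 identifiers 36345 had a symbol in GENCODE M21, which also gave exon lengths for RPKM. Bulk counts were filtered with filterByExpr, scaled with TMM and tested with edgeR 4.0.16 in R 4.3.3 (glmQLFit, glmQLFTest, Benjamini-Hochberg adjustment over 11682 genes). The SE is the log2 fold change divided by the square root of F. Cells were clustered with Seurat 5.3.0 (2000 variable genes, 10 principal components, resolution 0.5), and no doublet caller was run: 8, 20 and 11 cells had over 2 times their library's median UMIs. The 384 well names are shared by the 3 libraries. Single-cell log2 differences used a pseudocount of 1 CPM. Shares and CPM have exact 95% intervals.

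The 7 genes and all lists were chosen with earlier results of these data known, and 1 listed gene is not reported here. Named genes were the 7, the receptors of their products, pathway genes past the threshold and the 5 genes most like Serpinf1 and Pgf. Vegfa, Angpt1, Serpinb5, Lpl, Lcn2, Cd24a, the genes named beside the clusters and the marker genes at 0 were named after their values were seen. Alternatives were DESeq2 1.42.0, its size factors, other filters, thresholds, resolutions and UMI minimums, thinning and each line left out. The fits were tested on simulated data.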

Additional observations from a re-analysis of the deposited data

How the results depend on the processing

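The log2 fold changes of Serpinf1 and Pgf in bulk kept their direction under DESeq2, DESeq2 size factors, both other filters and with each line left out, where they ranged from 5.31 to 5.72 and from 2.22 to 2.53. With a line left out, 2 to 3 of the 7 genes were past the threshold. Vegfc ranged from 0.17 to 1.03, Thbs1 from -0.21 to 0.44 and Angptl4 from -0.90 to 0.28, so the direction of Thbs1 and Angptl4 rests on single lines. Pathway genes called higher numbered 12 in the fit reported, 14 with DESeq2, 17 with any gene of at least 1 count (more genes tested) and 9 at an adjusted p under 0.05, and ranged from 1 to 13 with a line left out. Those called lower numbered 1, 2 with the filter of at least 1 count and 0 at an adjusted p under 0.05, and ranged from 0 to 2 with a line left out.

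In the single-cell libraries the mean log2 differences were 1.38 for Serpinf1 and 1.34 for Pgf. They ranged from 1.10 to 1.66 and from 1.16 to 1.52 with a SOX4KO library left out and were 1.91 and 1.66 without clusters D and E. At a resolution of 0.3 the luminal-like cluster held Serpinf1 at 2.83, 5.48 and 7.20 CPM in GR17, GR18 and GR19. Thbs2 had -0.48 with thinning and Vegfc 0.45 with a pseudocount of 10 CPM. The causes were not tested. No paired analysis was possible because the lines are separate clones whose labels carry no shared replicate numbers. With 2 control lines in bulk, the differences of Vegfb, Vegfc, Thbs1 and Angptl4 were within about 2 standard errors of 0. With 1 control library of single cells, a single-cell difference has no replicate check.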

Other observations

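Of the 10 hypoxia-induced genes listed, 9 had their highest level in cluster B, a basal-like cluster that was mostly of the SOX4KO libraries. The share of all genes that were highest in B was not counted, so nothing is read from this number. The 1 other, Egln3, was highest in the luminal-like cluster E (219 CPM against 143 in B). Vegfa, the main ligand of endothelial growth, measured 258 CPM in B over all libraries and 35.2 to 90.0 CPM in the other 5 clusters. Bnip3 measured 461 CPM in B against 27.9 to 250 elsewhere, and Ndrg1 196 CPM against 18.6 to 96.9. The peptide ligand Apln measured 26.9 CPM in B against 2.09 to 8.0 elsewhere. Serpinf1 was highest in C, at 422 and 314 CPM in GR18 and GR19, against 252 and 222 CPM in B. In GR19 its interval in C overlapped that in F. Pgf was highest in B, at 252 and 217 CPM, against 215 and 156 CPM in C, with overlapping intervals in GR18. A link of either gene to low oxygen was not tested. By library, Vegfa measured 38.2 CPM in GR17, 127 in GR18 and 91.6 in GR19. Vegfa and Apln are not on that list. The genes named in this paragraph were picked after their values were seen, Vegfa and Ndrg1 are among the genes that lead cluster B, and no test was made.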
